A study of Mus musculus with 6 samples.

Results

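The respiratory chain and the ATP synthase of the mitochondrial inner membrane were followed through the transcripts of their nuclear-encoded subunits in mouse hearts. A gene was taken as a member when a probe set with 1 annotated symbol began with Nduf, one of the letters a, b, c, s or v and a digit (complex I), was 1 of the Sdh genes (complex II), or began with Uqcr (complex III), Cox4 to Cox8 (complex IV) or Atp5 (ATP synthase). This gave 81 genes with 164 probe sets, of 18193 genes with a probe set of 1 symbol, and the probe set of highest mean over the 6 arrays stood for a gene with several. Of the 81 genes, 78 passed a filter on dim probe sets and were tested, against 13236 of all genes. The tested members were 34 genes of complex I, 4 of complex II, 8 of complex III, 15 of complex IV and 17 of the ATP synthase. Cox7b2, Cox7c and Ndufb4 had only dim probe sets and were not tested.

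Hearts of 8-month-old mice were profiled in 3 groups of 2 Affymetrix arrays each. The treated group held apoE-deficient mice given the PPAR-gamma agonist rosiglitazone at 30 mg/kg/d from 6 months of age for 2 months, and its hearts are labelled as failing. The other groups were untreated apoE-deficient mice and untreated, non-transgenic B6 mice, the background strain of the apoE-deficient mice. Apolipoprotein E carries lipoproteins to their receptors, and mice without it accumulate lipoproteins in blood. All mice ate the same chow with 7% fat and 0.15% cholesterol, and rosiglitazone was given to none of the B6 mice. Whether 2 arrays of a group hold RNA of different animals is not stated in the labels, and the p-values reflect the spread between arrays alone, which may be technical.

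Complex I takes electrons from NADH and complex II from succinate, and both pass them to ubiquinone. Complex III moves them on to cytochrome c and complex IV from there to oxygen, while complexes I, III and IV pump protons that drive the ATP synthase. Each complex joins a few catalytic core subunits to many accessory ones, and a working complex holds its subunits in fixed proportion. Heart muscle is dense in mitochondria, and in complex IV several subunits have a heart and muscle isoform beside a form used in most tissues. A few subunits are encoded in mitochondrial DNA and are no members here.

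The deposited signals differed in brightness between arrays. The treated arrays had trimmed means of 341 and 263, the untreated apoE-deficient arrays 126 and 130 and the B6 arrays 175 and 149, so overall brightness moved with group. Values below are log2 of quantile-normalized signal plus 11.1, which makes the distributions of the arrays equal, and a difference is a difference of group means on that scale. The subunit probe sets were among the brightest on the array, where 64 of 78 had a mean log2 level above the 99th percentile of all non-control probe sets. Their median signal was between 48.9% and 52.9% of the array maximum, highest for the treated hearts. The part of this difference in brightness in the results was not tested. Heart muscle transcripts were present in all groups. All 12 cardiomyocyte marker genes passed the filter, with a summed signal of 169700 to 176200 in the treated, 177100 to 180400 in the untreated apoE-deficient and 185900 to 187200 in the B6 hearts. The treated arrays also held transcripts of other tissues, described below. Airway epithelium markers summed to 15760 to 16650 there, 160 to 210 in untreated apoE-deficient and 144 to 205 in B6 hearts. In whole hearts, fewer cells of a type and less RNA per cell cannot be told apart.

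Rosiglitazone-treated apoE-deficient hearts were compared first with untreated apoE-deficient hearts. With quantile normalization, subunit transcripts changed unequally, in both directions within every complex and mostly by small amounts. Under the other scalings described below, 63 to 75 of the 78 genes were below 0, and 1 was without scaling. With quantile normalization 15 of 78 subunit genes rose and 28 fell, which is 55.1% against the 23.7% of all tested genes that passed in either direction. In the single directions these are 19.2% higher against 11.4% of all genes and 35.9% lower against 12.3%. The members are brighter than most genes, and the limma SE was smaller for bright members than for dim ones. It was 0.03 for Atp5d, whose difference of -0.10 passed, and 0.21 for the dim Cox6b2, whose 0.37 did not. Without the intensity trend of limma 1 gene was left higher and 2 lower. The part of brightness in these shares was not tested. The median log2 difference of the members was -0.06, against -0.03 for all genes. Quantile normalization makes the distributions of the arrays equal, which limits a common shift of the brightest probe sets. The gap between these medians was wider with the other scalings, as given below. By complex, 8 genes of complex I rose and 13 fell, 1 and 1 of complex II, 2 and 2 of complex III, 2 and 3 of complex IV, and 2 and 9 of the ATP synthase. Both treated arrays lay above both untreated ones for 21 genes and below them for 41 of 78, against 29% and 34.5% of all genes. The differences were small, with 3 of 78 over 0.5 on the log2 scale in either direction and 25 of the 43 that passed under 0.25. Leaving out the first untreated array left 18 genes lower, and leaving out the second left 8 higher. Between the arrays of 1 group the spread was small, with a median gap over the members of 0.06 between the treated arrays, 0.03 between the untreated apoE-deficient arrays and 0.02 between the B6 arrays.

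**Figure D1:**
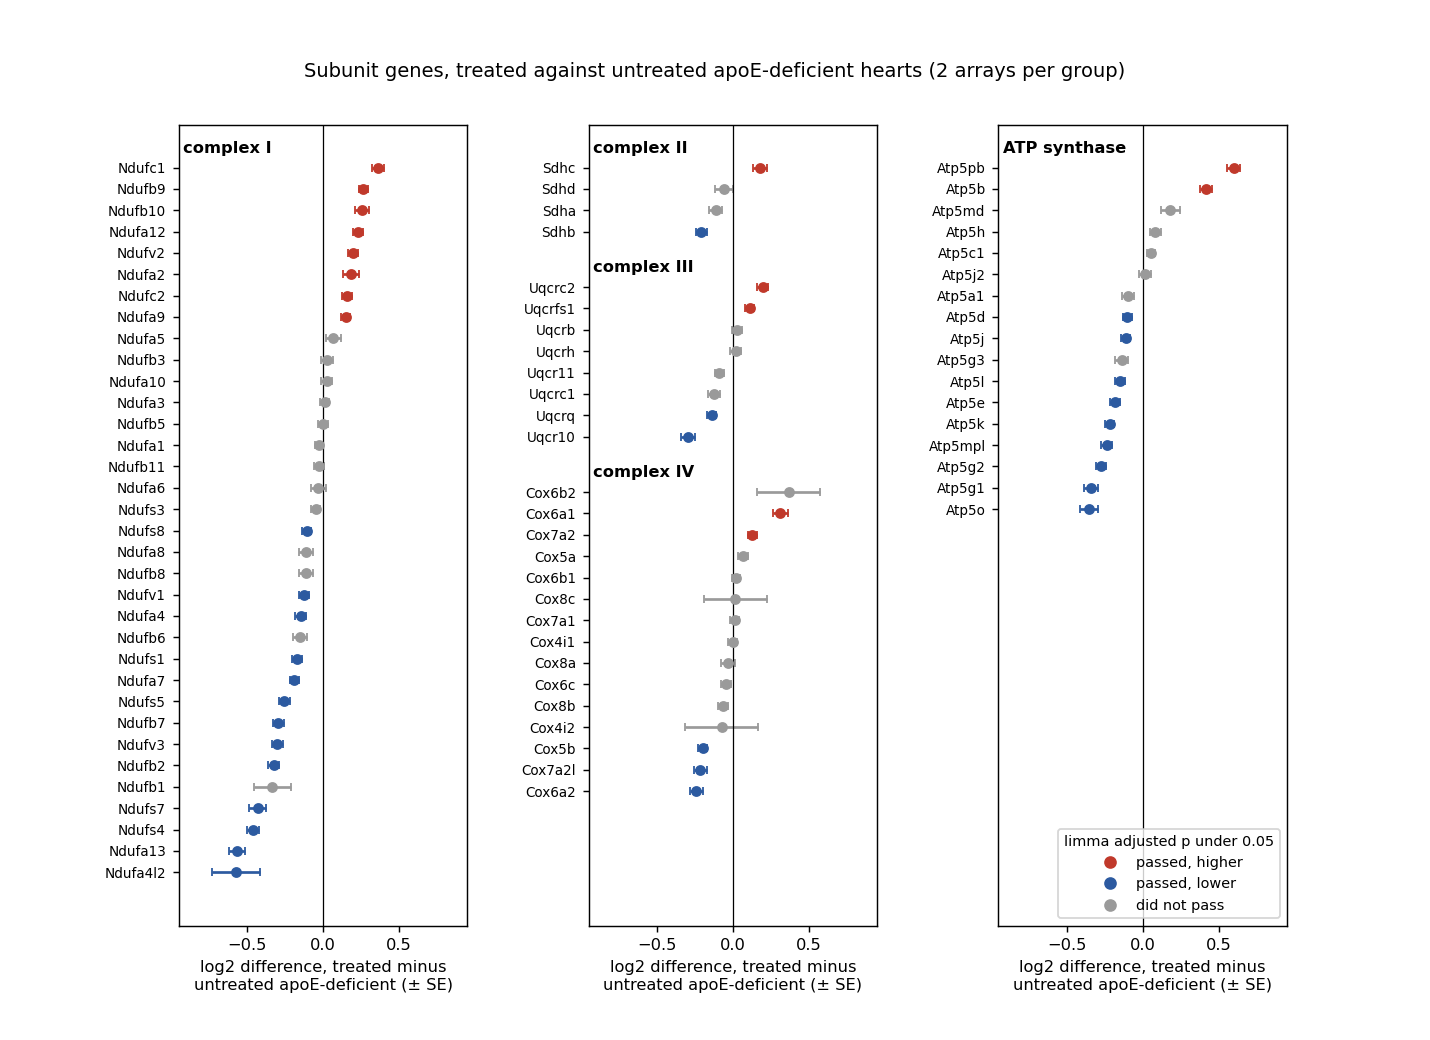
The horizontal axis is the log2 difference of treated minus untreated apoE-deficient hearts with quantile normalization, with bars of ± 1 SE from limma (2 arrays per group), for each of the 78 tested subunit genes by complex. Red and blue points passed at an adjusted p under 0.05, and they run from -0.57 for Ndufa4l2 to 0.60 for Atp5pb; with trimmed-mean scaling all 15 red points turn to below 0, and without scaling 27 of the 28 blue ones turn to above 0.

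These directions depend on the scaling between arrays, and the dependence is not the same for both sides. Of the 28 genes that fell, all 28 were also below 0 with cyclic loess, trimmed-mean, spike-in and median scaling, where 27, 27, 27 and 26 of them passed, and 1 of 28 was below 0 in the unscaled signals. Of the 15 that rose, 10 were above 0 with cyclic loess, 0 with trimmed-mean scaling, 4 with spike-in scaling, 5 with array medians centred and 15 without scaling. Genes that passed numbered 6 higher and 50 lower with cyclic loess, 0 and 69 after trimmed-mean scaling, 0 and 65 by the spike-ins, 5 and 58 with medians centred, and 70 and 0 of these 78 genes without scaling. The members' median moved from -0.06 to -0.21, -0.70, -0.52 and -0.36 under the first 4 of these and to 0.53 without scaling. The medians of all genes moved less with scaling, to -0.02, 0.00, 0.17 and 0.25, and stood at 1.14 without scaling. Relative to all genes the members' median stood at -0.03 with quantile normalization, and at -0.18, -0.70, -0.69, -0.61 and -0.61 in the other settings in the same order. Below, "rose" and "fell" refer to quantile normalization, and the sentences on each group of genes say where a direction turned. Limma without its intensity trend, which pools the variance over all brightnesses, left 1 gene higher and 2 lower.

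**Figure D2:**
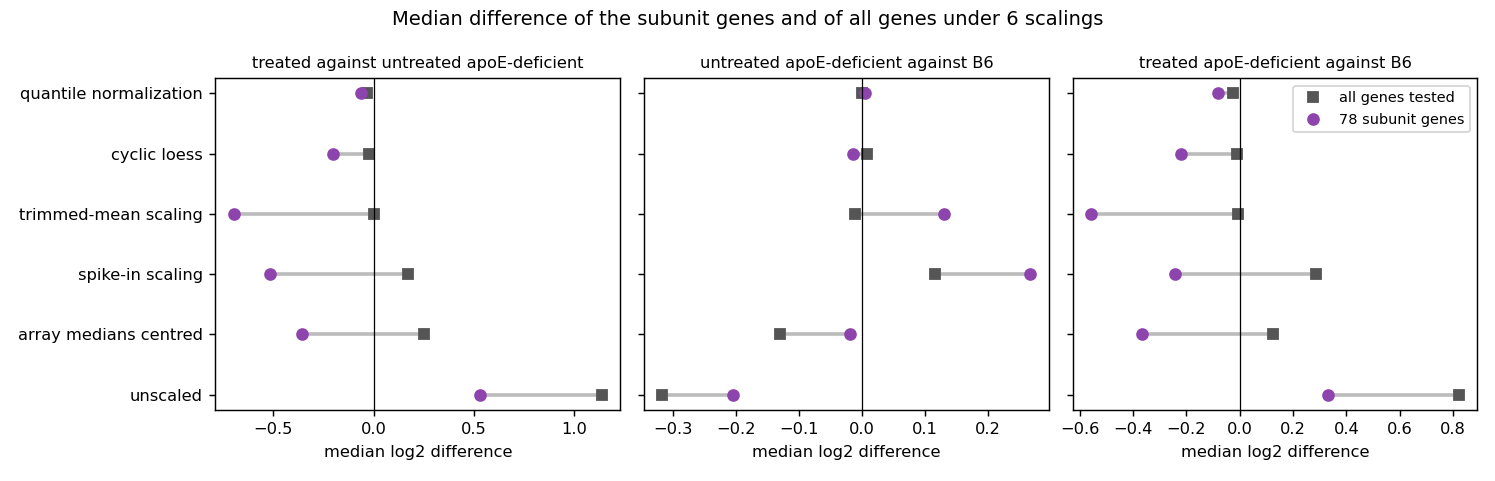
The horizontal axis of each panel is the median log2 difference of a comparison, as purple circles for the 78 subunit genes and grey squares for all genes tested, and the rows are quantile normalization, 4 other scalings and the unscaled signals. For treated against untreated apoE-deficient hearts the subunit median runs from -0.70 with trimmed-mean scaling to 0.53 without scaling and lies left of the median of all genes in every row.

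Among the core subunits of complex I described here, 4 fell, 1 rose and 1 did not pass. Ndufs7 carries the iron-sulfur cluster that hands electrons to ubiquinone. Its log2 levels were 12.71 and 12.91 in the treated hearts, 13.25 and 13.23 in the untreated apoE-deficient hearts and 13.15 and 13.14 in B6, and both treated arrays lay below the other 4. It fell by 0.43 ± 0.06 (SE, adjusted p = 0.000938). Ndufs8, a neighbouring iron-sulfur subunit, stood at 13.32 and 13.33 in the treated hearts, 13.43 and 13.44 in the untreated apoE-deficient hearts and 13.28 and 13.23 in B6, highest in untreated apoE-deficient hearts, and fell by 0.11 (adjusted p = 0.0412). Ndufs1, the large iron-sulfur subunit of the electron input module, stood at 12.65 and 12.64 in the treated hearts, 12.83 and 12.81 in the untreated apoE-deficient hearts and 12.76 and 12.79 in B6. It fell by 0.17 (adjusted p = 0.00671). For Ndufv1, which binds NADH and its flavin, the levels were 13.18 and 13.20 in the treated hearts, 13.35 and 13.29 in the untreated apoE-deficient hearts and 13.40 and 13.41 in B6, a fall of 0.13 (adjusted p = 0.0247). These 4 genes were lower in all scalings and higher without scaling.

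Ndufv2, an iron-sulfur subunit that sits beside Ndufv1 in the same module, went the other way. Its levels were 13.58 and 13.52 in the treated hearts, 13.34 and 13.37 in the untreated apoE-deficient hearts and 13.42 and 13.41 in B6. The treated arrays lay above the other 4, with a difference of 0.20 ± 0.03 SE, adjusted p = 0.00304. That rise turned to -0.01 with cyclic loess and to between -0.17 and -0.51 with the other scalings, so that Ndufv2 fell less than Ndufv1 there. Ndufs3, a core subunit without a cluster, did not pass, at -0.05 ± 0.03, with levels of 12.89 and 12.89 in the treated hearts, 12.95 and 12.93 in the untreated apoE-deficient hearts and 12.95 and 12.94 in B6.

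The largest changes of complex I were in accessory subunits. Ndufa13, also known as Grim19, had levels of 13.23 and 13.41 in the treated hearts, 13.88 and 13.88 in the untreated apoE-deficient hearts and 13.68 and 13.74 in B6. It was lowest on both treated arrays and differed by -0.56 ± 0.05 SE, adjusted p = 0.000134, and it was lower without scaling too, by 0.03. Ndufs4, whose loss in mice disables complex I and causes a Leigh-like disease, stood at 11.83 and 11.78 in the treated hearts, 12.28 and 12.25 in the untreated apoE-deficient hearts and 12.05 and 12.05 in B6, and fell by 0.46 ± 0.04 (adjusted p = 7.87e-05). Its groups were fully separated, with untreated apoE-deficient hearts highest and treated hearts lowest. Ndufa4l2, a hypoxia-induced relative of Ndufa4, was a dim member at 7.69 and 8.20 in the treated hearts, 8.47 and 8.56 in the untreated apoE-deficient hearts and 8.02 and 8.16 in B6. Its difference of -0.57 had a larger SE of 0.16 (adjusted p = 0.0353), and the treated arrays were 0.51 apart. Ndufa4 itself, originally placed in complex I and later in complex IV, fell by 0.15 (adjusted p = 0.0193), from 13.52 and 13.47 to 13.31 and 13.38. Ndufs4, Ndufa4l2 and Ndufa4 were lower with every scaling and higher in unscaled signals.

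The accessory subunits that rose most lie in the membrane arm of complex I. Ndufc1 had levels of 13.71 and 13.60 in the treated hearts, 13.30 and 13.29 in the untreated apoE-deficient hearts and 13.47 and 13.45 in B6, and its difference was 0.36 ± 0.04 SE, adjusted p = 0.000358. Ndufb9 stood at 13.97 and 13.91 in the treated hearts, 13.68 and 13.66 in the untreated apoE-deficient hearts and 13.82 and 13.78 in B6, and was higher by 0.27 ± 0.03 (adjusted p = 0.000554). Untreated apoE-deficient hearts were lowest and treated hearts highest for both genes. Both stayed above 0 with cyclic loess, at 0.13 and 0.03, and turned below 0 with trimmed-mean (-0.37 and -0.52), spike-in (-0.19 and -0.34) and median scaling (-0.03 and -0.18).

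In complex II the iron-sulfur subunit and a membrane anchor moved in opposite directions. Sdhb, which carries the clusters, had levels of 13.64 and 13.70 in the treated hearts, 13.90 and 13.85 in the untreated apoE-deficient hearts and 13.80 and 13.84 in B6, and fell by 0.21 ± 0.03 (adjusted p = 0.00311). Sdhc, an anchor in the membrane, stood at 11.92 and 11.87 in the treated hearts, 11.72 and 11.72 in the untreated apoE-deficient hearts and 11.93 and 11.86 in B6, lowest in untreated apoE-deficient hearts, and rose by 0.18 ± 0.04 (adjusted p = 0.0188). Treated and B6 hearts overlapped for Sdhc. The flavin-bearing Sdha stood at 13.09 and 13.19 in the treated hearts, 13.27 and 13.24 in the untreated apoE-deficient hearts and 13.16 and 13.24 in B6, and did not pass (-0.11, adjusted p = 0.108). The other anchor, Sdhd, overlapped in all groups, at 12.41 and 12.59 in the treated hearts, 12.52 and 12.60 in the untreated apoE-deficient hearts and 12.52 and 12.56 in B6. Sdhb was lower in all scalings and higher without scaling, and Sdhc was above 0 in every setting except trimmed-mean scaling, where it stood at -0.0093.

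Complex III held 2 genes that rose and 2 that fell. Uqcrc2, a core protein, had levels of 13.61 and 13.69 in the treated hearts, 13.46 and 13.44 in the untreated apoE-deficient hearts and 13.50 and 13.43 in B6, with only the treated arrays set apart, and differed by 0.20 ± 0.04 SE, adjusted p = 0.00728. Uqcrfs1, the Rieske iron-sulfur protein that takes electrons from ubiquinol, was lowest in untreated apoE-deficient hearts, at 13.25 and 13.25 in the treated hearts, 13.13 and 13.14 in the untreated apoE-deficient hearts and 13.35 and 13.34 in B6. It rose by 0.11 ± 0.03 (adjusted p = 0.0302). Both rises turned with cyclic loess, to -0.02 and -0.0091, and with trimmed-mean, spike-in and median scaling, to between -0.14 and -0.53. Uqcr10, a small accessory subunit, had levels of 12.62 and 12.75 in the treated hearts, 12.98 and 12.98 in the untreated apoE-deficient hearts and 12.93 and 12.95 in B6, and fell by 0.30 ± 0.05 (adjusted p = 0.00193). Uqcrq fell by 0.14 (adjusted p = 0.0138), and both falls kept their sign under every scaling and turned without scaling. Uqcrc1, the other core protein, did not pass at -0.13 (adjusted p = 0.0531), with levels of 13.38 and 13.50 in the treated hearts, 13.57 and 13.56 in the untreated apoE-deficient hearts and 13.57 and 13.56 in B6.

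In complex IV 5 of 15 genes passed, and the isoform pairs were followed array by array. Cox6a1 is the form of subunit 6a found in most tissues and Cox6a2 the heart and muscle form. Cox6a1 had levels of 12.87 and 13.01 in the treated hearts, 12.63 and 12.63 in the untreated apoE-deficient hearts and 12.68 and 12.74 in B6, highest on the treated arrays, and rose by 0.31 ± 0.05 (adjusted p = 0.00233). Cox6a2 had levels of 13.75 and 13.85 in the treated hearts, 14.02 and 14.06 in the untreated apoE-deficient hearts and 13.92 and 13.98 in B6, lowest on the treated arrays, and fell by 0.24 ± 0.04 (adjusted p = 0.00303). The log2 ratio of Cox6a1 to Cox6a2, set to a mean of 0 in B6, was 0.37 and 0.41 on the treated arrays and -0.14 and -0.19 on the untreated ones. It changed by 0.55 with quantile normalization and by up to 0.92 in the other settings. Trimmed-mean, spike-in, median and no scaling move all genes of an array alike and so give a ratio within an array nearly the same value by construction. The rise of Cox6a1 itself turned to -0.13 with trimmed-mean scaling, and Cox6a2 was lower in all scalings but not without scaling. A further probe set of Cox6a2 gave 0.15, which also passed, against this direction. In untreated apoE-deficient against B6 hearts that probe set stood at -0.36 and passed, while the one used stood at 0.08. The other probe set of Cox6a1 stood at 0.15 there and the one used at -0.08, and neither passed. The negative ratio on the untreated arrays thus rests on the probe sets used.

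The pair of subunit 7a changed less. Cox7a2, the form of most tissues, had levels of 13.94 and 13.92 in the treated hearts, 13.83 and 13.78 in the untreated apoE-deficient hearts and 13.78 and 13.78 in B6, and rose by 0.13 (adjusted p = 0.0174), turning to between -0.14 and -0.70 with the other scalings. Cox7a1, the heart and muscle form, overlapped in all groups at 13.63 and 13.60 in the treated hearts, 13.61 and 13.60 in the untreated apoE-deficient hearts and 13.61 and 13.59 in B6, with a difference of 0.01 ± 0.03. Cox7a2l, a factor that links complexes III and IV into supercomplexes, stood at 11.84 and 11.90 in the treated hearts, 12.11 and 12.06 in the untreated apoE-deficient hearts and 12.03 and 12.01 in B6, and fell by 0.21 (adjusted p = 0.00704), under every scaling but not without scaling.

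For the other isoform families no member passed. Cox4i1, the form of subunit 4 in most tissues, had levels of 14.02 and 14.06 in the treated hearts, 14.03 and 14.04 in the untreated apoE-deficient hearts and 14.02 and 14.00 in B6. Cox4i2, a hypoxia-linked form, was a dim member at 6.23 and 6.45 in the treated hearts, 6.51 and 6.32 in the untreated apoE-deficient hearts and 6.48 and 6.04 in B6. Treated and untreated arrays overlapped for both. Cox8b, the heart and muscle form of subunit 8, stood at 13.80 and 13.72 in the treated hearts, 13.84 and 13.81 in the untreated apoE-deficient hearts and 13.76 and 13.73 in B6, and Cox8a, the form of most tissues, at 11.79 and 11.85 in the treated hearts, 11.86 and 11.84 in the untreated apoE-deficient hearts and 11.71 and 11.80 in B6. Treated and untreated arrays overlapped for Cox8a and lay close together for Cox8b, at -0.07 ± 0.03. The testis form Cox8c stood at 7.68 and 7.75 in the treated hearts, 7.65 and 7.75 in the untreated apoE-deficient hearts and 7.77 and 8.50 in B6, with its B6 arrays 0.73 apart. Cox6b1 was at 14.00 and 14.02 in the treated hearts, 14.00 and 13.98 in the untreated apoE-deficient hearts and 13.97 and 13.97 in B6, and the testis form Cox6b2 at 6.47 and 6.51 in the treated hearts, 6.01 and 6.24 in the untreated apoE-deficient hearts and 6.56 and 6.65 in B6. The differences of Cox6b1 and Cox6b2 were 0.02 ± 0.03 and 0.37 ± 0.21. Of the structural subunits 5a and 5b, Cox5a did not pass (0.07), with levels of 13.81 and 13.74 in the treated hearts, 13.71 and 13.71 in the untreated apoE-deficient hearts and 13.73 and 13.77 in B6. Cox5b had levels of 13.79 and 13.81 in the treated hearts, 13.98 and 14.02 in the untreated apoE-deficient hearts and 13.94 and 13.96 in B6, and fell by 0.20 ± 0.03 (adjusted p = 0.00135), with every scaling but not without scaling.

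The ATP synthase held the largest rise of all members and the highest share of falls, 9 of 17. Atp5pb encodes the b subunit of the peripheral stalk, which keeps the catalytic head from turning. Its levels were 13.97 and 13.84 in the treated hearts, 13.31 and 13.31 in the untreated apoE-deficient hearts and 13.72 and 13.68 in B6, and the 3 groups were fully separated with untreated apoE-deficient hearts lowest. It rose by 0.60 ± 0.04 (adjusted p = 3.44e-05). Atp5b, the catalytic beta subunit, had levels of 14.12 and 14.01 in the treated hearts, 13.66 and 13.63 in the untreated apoE-deficient hearts and 13.75 and 13.76 in B6, and rose by 0.42 ± 0.04 (adjusted p = 0.000134). Its partner in the head, the alpha subunit Atp5a1, did not pass, at 13.87 and 13.83 in the treated hearts, 14.00 and 13.90 in the untreated apoE-deficient hearts and 13.97 and 13.92 in B6, and a difference of -0.10 ± 0.04. The rise of Atp5pb stayed above 0 in all settings except trimmed-mean scaling (-0.15), and that of Atp5b turned to -0.41 with trimmed-mean, -0.23 with spike-in and -0.06 with median scaling.

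By the probe sets used, the peripheral stalk subunit Atp5o, known as OSCP, fell while Atp5pb of the same stalk rose. The other probe set of Atp5o rose by 0.39 and passed, and that of Atp5pb gave 0.08 and did not pass. The values that follow are those of the probe sets used. Atp5o had levels of 13.54 and 13.47 in the treated hearts, 13.77 and 13.95 in the untreated apoE-deficient hearts and 13.57 and 13.66 in B6, highest in untreated apoE-deficient hearts, and fell by 0.35 ± 0.06 (adjusted p = 0.00281). The membrane ring of the enzyme is made of subunit c, and Atp5g1, Atp5g2 and Atp5g3 encode the same mature protein. Atp5g1 stood at 13.47 and 13.59 in the treated hearts, 13.87 and 13.87 in the untreated apoE-deficient hearts and 13.68 and 13.75 in B6, lowest on the treated arrays. Atp5g2 stood at 12.63 and 12.63 in the treated hearts, 12.92 and 12.89 in the untreated apoE-deficient hearts and 12.84 and 12.84 in B6, with the same order. They fell by 0.34 ± 0.04 and 0.28 ± 0.03 (adjusted p = 0.000758 and 0.000507). Atp5g3, at 13.59 and 13.71 in the treated hearts, 13.82 and 13.76 in the untreated apoE-deficient hearts and 13.89 and 13.90 in B6, did not pass against untreated hearts (-0.14, adjusted p = 0.0509). The ratio of Atp5g1 to Atp5g3 fell by 0.20 on the log2 scale. The single falls of Atp5o, Atp5g1 and Atp5g2 kept their sign in every scaling and turned in unscaled signals.

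**Figure D3:**
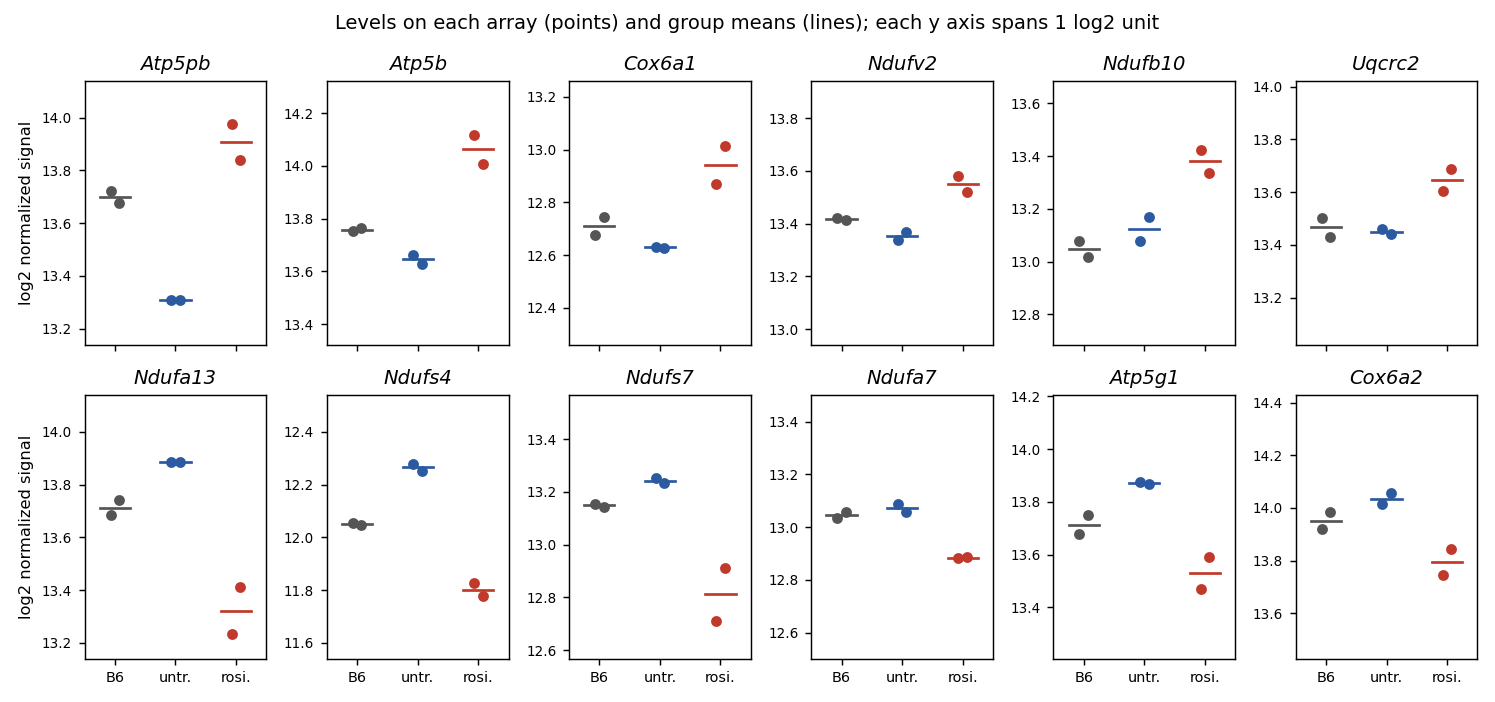
The vertical axes give the log2 quantile-normalized signal of 12 subunit genes, each spanning 1 log2 unit, for B6, untreated apoE-deficient (untr.) and rosiglitazone-treated apoE-deficient (rosi.) hearts, with points for the 2 arrays of a group and a line for their mean. In the upper row the treated arrays are highest (Atp5pb at 13.97 and 13.84) and in the lower row they are lowest (Ndufa13 at 13.23 and 13.41); with trimmed-mean scaling the genes of the upper row were lower in treated than in untreated hearts, and without scaling those of the lower row other than Ndufa13 were higher.

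To set aside the common shift, each difference was taken relative to the median of the 78 subunit genes within the same scaling. For treated against untreated apoE-deficient hearts, 28 genes lay above that median in all 6 settings of scaling, 28 lay below it in all and 22 changed sides. Trimmed-mean, spike-in, median and no scaling move all genes of an array alike, so they give nearly the same relative values by construction, and the ranges below compare quantile normalization, cyclic loess and that shared value. The equal numbers above and below follow from centring on the median. Atp5pb lay 0.66 above the median (0.54 to 0.66 over the settings), Atp5b 0.48 (0.29 to 0.48) and Cox6a1 0.37 (0.37 to 0.57). Ndufa13 lay at -0.50 (-0.56 to -0.50), Ndufs7 at -0.37 (-0.37 to -0.27) and Atp5g1 at -0.28 (-0.40 to -0.28). The ratio of Atp5pb to Ndufa13 changed by 1.16 on the log2 scale. Among the genes that kept their side these lie farthest above and below, so a large change is given by that choice. By complex, 15 genes of complex I lay above in all and 11 below, 9 of the ATP synthase below and 4 above, and in complex IV 4 above, 3 below and 8 on changing sides. Subunits of the same complex lay on both sides in each of the 5 complexes, which centring on the members' own median favours. Without centring, 45 of the 78 genes were below 0 and 2 above 0 in all 5 settings other than the unscaled signals.

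**Figure D4:**
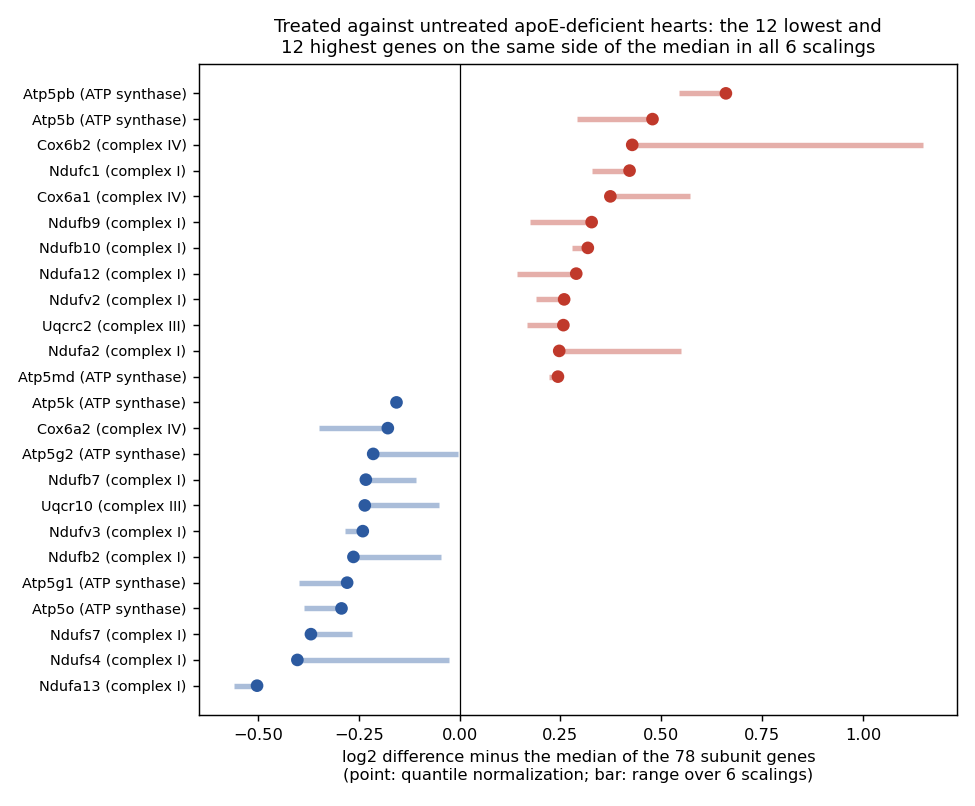
The horizontal axis is the log2 difference of treated minus untreated apoE-deficient hearts relative to the median of the 78 subunit genes, with points for quantile normalization and bars for the range over 6 settings of scaling (of which 4 nearly share 1 value by construction), for the 12 lowest and 12 highest genes that kept their side. Atp5pb is farthest above at 0.66 and Ndufa13 farthest below at -0.50, and genes of complex I and the ATP synthase stand at both ends.

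Many members have further probe sets, which test the same transcript at other places. Of the genes that passed, 26 had others that were tested, 47 in all: 22 of these passed in the same direction, 20 did not pass and 5 passed in the opposite direction. All probe sets of Ndufv2 rose (3 of 3, from 0.20 to 0.52), as did both of Cox6a1 (0.31 and 0.54). All 5 of Ndufa7, an accessory subunit of complex I, fell (-0.48 to -0.19), as did both of Ndufs7 (-0.43 and -0.27), Ndufb7 (-0.34 and -0.29), Ndufb2 (-0.32 and -0.21) and Atp5d (-0.31 and -0.10). Of the 6 probe sets of Ndufs8, 5 fell. Probe sets of Ndufs4, Ndufc1, Cox6a2, Cox7a2 and Atp5o passed in both directions, so the calls of these 5 genes rest on the probe set used. For Ndufs4, 2 fell and 1 rose (0.61), and for Atp5o the second probe set rose by 0.39. The large rise of Atp5pb was seen in 1 of its 2 probe sets, since the other gave 0.08 and did not pass. Some genes did not pass by the probe set used but did by another, and these were chosen after their values were seen. Cox5a, which carries no heme or metal and sits on the matrix side of complex IV, had 2 other probe sets that both rose. The first stood at 13.55 and 13.44 in the treated, 13.20 and 13.21 in the untreated apoE-deficient and 13.30 and 13.25 in the B6 hearts (0.29 ± 0.04 SE, adjusted p = 0.00113). The second stood at 13.50 and 13.36, 12.84 and 12.84, and 13.01 and 12.94 in the same order (0.59 ± 0.05 SE, adjusted p = 6.03e-05). In both, the treated arrays lay above the other 4. Single further probe sets rose for Cox6c (0.69), Sdhd (0.47), Ndufb6 (0.45) and Uqcrb (0.39). Others fell, for Ndufa10 (-0.54), Cox6b1 (-0.27), Ndufb11 (-0.22 and -0.15), Sdha (-0.20) and Ndufa5 (-0.19). The directions in these sentences are those of quantile normalization.

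**Figure D5:**
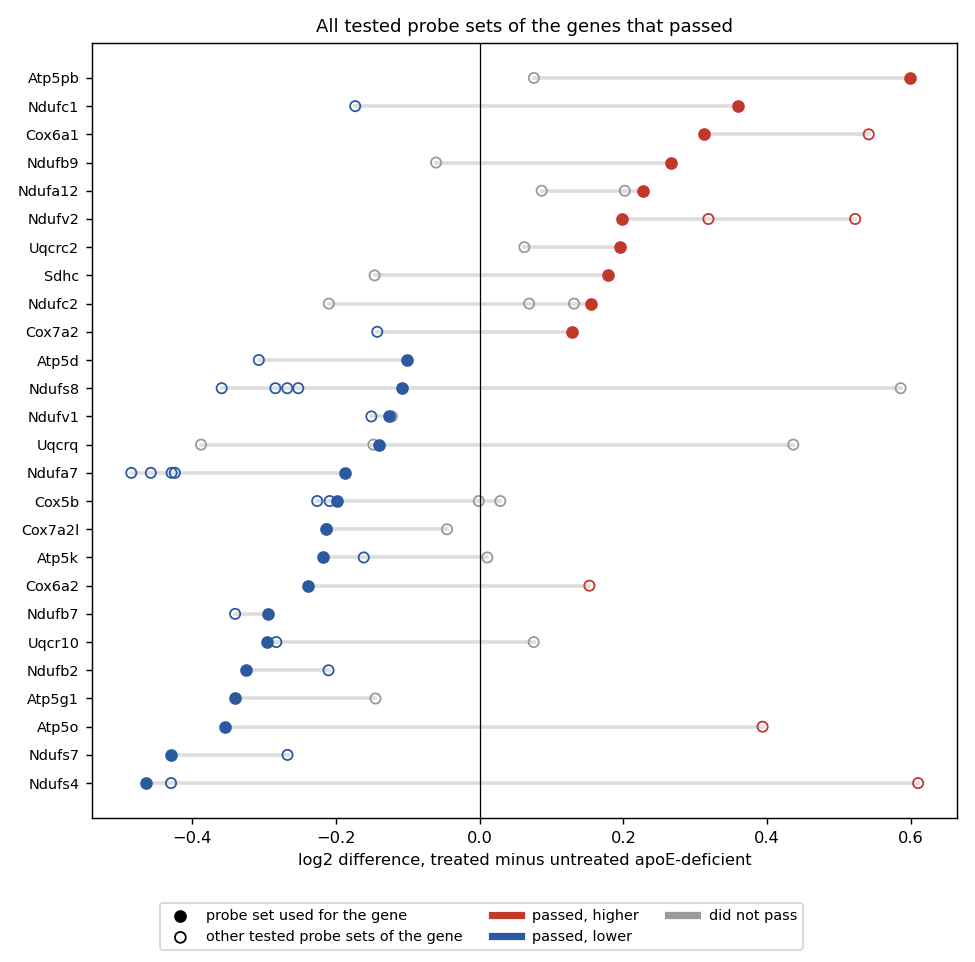
The horizontal axis is the log2 difference of treated minus untreated apoE-deficient hearts with quantile normalization, for every tested probe set of the genes that passed and have more than 1, with filled points for the probe set used for the gene and open ones for the others. All points of Ndufa7, Ndufs7, Ndufb7, Ndufb2 and Atp5d are blue and those of Ndufv2 and Cox6a1 red, while Ndufs4 spans -0.46 to 0.61; with trimmed-mean scaling the filled red points turn to below 0, and without scaling the filled blue ones to above 0.

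Untreated apoE-deficient hearts were next compared with B6 hearts, groups that differ in their apoE genotype and not in treatment. By the probe sets used, few subunit genes differed, with 4 higher and 7 lower of 78. This is 14.1% against 8.51% of all genes, with 3.85% of all genes higher and 4.66% lower. The members' median difference was 0.0046, and that of all genes 0.0006. The higher genes were the complex I accessory subunits Ndufs4 (0.22 ± 0.04 SE, adjusted p = 0.0143) and Ndufs5 (0.19 ± 0.03 SE, adjusted p = 0.0122), the core subunit Ndufs8 (0.18 ± 0.03 SE, adjusted p = 0.013) and Atp5o (0.24 ± 0.06 SE, adjusted p = 0.0391). All 4 were above 0 in every setting of scaling. Other probe sets of Ndufs4 stood at -0.27 and 0.23 and did not pass. By the probe sets used, Atp5pb showed the largest fall that passed, of 0.39 ± 0.04 (adjusted p = 0.00162). It was below 0 in every setting of scaling as well. Its other probe set stood at 0.05 and did not pass. Of the 14 other probe sets of the genes that passed here, 1 passed in the same direction and 13 did not pass. Some genes that did not pass by the probe set used did by another, and these were chosen after their values were seen. Such probe sets were lower for Cox6c (-0.49), Cox6a2 (-0.36), Ndufc2 (-0.23) and Ndufv2 (-0.16), and higher for Cox8a (0.20). Uqcrfs1 fell by 0.21 (adjusted p = 0.00534), Sdhc by 0.17 (0.0447), Ndufc1 by 0.16 (0.0427) and Ndufb11 by 0.15 (0.0248), and these 4 turned to above 0 with spike-in scaling (0.02 to 0.11), Sdhc also with the mean of its probe sets (0.0052). The genes that passed were 7 of complex I, 1 of complex II, 1 of complex III and 2 of the ATP synthase. The counts of higher and lower genes became 4 and 10 with cyclic loess, 8 and 1 with trimmed-mean, 41 and 0 with spike-in and 3 and 10 with median scaling, and 0 and 2 without scaling. Without the intensity trend of limma no call was left. The counts also moved with each array left out. Without the first untreated array 1 gene was higher and 1 lower, without the second 0 and 2, without either B6 array 0 and 2, and without the first or the second treated array, which enter only the estimate of spread, 8 higher and 10 or 11 lower.

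Treated hearts were last compared with B6 hearts. Here 10 subunit genes were higher and 28 lower, 48.7% against 18.7% of all genes (8.78% higher and 9.87% lower), with a median of -0.08 for the members and -0.03 for all genes. This comparison shares the treated arrays with the first and the B6 arrays with the second. By complex, 5 genes of complex I rose and 13 fell, 0 and 1 of complex II, 1 and 2 of complex III, 2 and 4 of complex IV, and 2 and 8 of the ATP synthase. Highest were Ndufb10, an accessory subunit of complex I (0.33 ± 0.04 SE, adjusted p = 0.00123), and Atp5b (0.30 ± 0.04 SE, adjusted p = 0.000914), followed by Ndufa12 at 0.25 and Cox6a1 at 0.23. Atp5pb was higher by 0.21 and Uqcrc2 by 0.18. All 10 rises turned with trimmed-mean scaling, and with cyclic loess, spike-in and median scaling 2 of the 10 kept their sign in each. Lowest were Ndufa13 (-0.39 ± 0.05 SE, adjusted p = 0.00119) and Ndufs7 (-0.34 ± 0.06 SE, adjusted p = 0.00429). Uqcr10 was lower by 0.26, Atp5g3 by 0.25, Atp5k, a small membrane subunit of the ATP synthase, by 0.24, Sdhb by 0.15 and Cox5b by 0.15. Of the 28 falls, 28 kept their sign with cyclic loess, trimmed-mean and median scaling and 27 with spike-in scaling, while 1 did without scaling. The counts of higher and lower genes were 2 and 49 with cyclic loess, 0 and 67 with trimmed-mean, 3 and 45 with spike-in and 0 and 60 with median scaling, and 38 and 0 of these 78 genes without scaling. Without the intensity trend of limma none of these calls was left. Of the 40 other tested probe sets of the genes that passed here, 20 passed in the same direction, 18 did not pass and 2 passed in the opposite direction. Without the second B6 array 4 genes were higher and 12 lower, and without the first 5 were higher.

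The 3 comparisons side by side show where each group stood. Atp5pb was -0.39 in untreated apoE-deficient against B6 hearts, 0.60 in treated against untreated and 0.21 in treated against B6 hearts, where it turned to between -0.09 and -0.47 with the other scalings. Ndufs4 was 0.22, -0.46 and -0.25 in the same order, and Ndufa13 0.17, which did not pass, -0.56 and -0.39. These are values of the probe sets used. Another probe set of Ndufs4 stood at -0.27, 0.61 and 0.34, of which the last 2 passed. A further one stood at 0.23, -0.43 and -0.20, of which the second passed. The other probe set of Atp5pb stood at 0.05, 0.08 and 0.13, of which the last passed. Without scaling the probe set used for Ndufs4 turned to 0.50 and 0.51 in the last 2 comparisons, and Ndufa13 to -0.04 in the first. Sdhc passed in the first 2 and did not pass in treated against B6 hearts, at 0.00 ± 0.04, but passed there once scaled to the spike-ins (0.20) or left unscaled. Ndufs8 did not pass in treated against B6 hearts either, at 0.07 ± 0.03. It turned to -0.43 with trimmed-mean and -0.24 with median scaling, where it passed, and 3 of its 6 probe sets passed as lower there with quantile normalization. The comparisons share arrays, so a value on a shared group enters both with opposite or equal sign.

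Genes that build or feed the chain were taken from lists on the same pathway. Electron carriers and the enzymes of ubiquinone synthesis had 1 gene that rose and 11 that fell of 16 in treated against untreated apoE-deficient hearts, where 11.4% of all genes rose and 12.3% fell. The one that rose was Cycs, cytochrome c, at 14.25 and 14.22 in the treated hearts, 13.80 and 13.87 in the untreated apoE-deficient hearts and 13.87 and 13.70 in B6 (0.40 ± 0.05 SE, adjusted p = 0.000856), which turned to between -0.07 and -0.41 with trimmed-mean, spike-in and median scaling. Among the falls were Coq8b (-0.69 ± 0.19), Coq4 (-0.49 ± 0.13) and Coq7 (-0.25 ± 0.05), which act in ubiquinone synthesis. The count of falls in this list was 11 with cyclic loess, 13 with trimmed-mean, 9 with spike-in and 5 with median scaling, and 0 without scaling. Of the cytochrome c1 gene Cyc1 and the acyl carrier subunit Ndufab1, whose symbols the rule does not cover, Cyc1 rose by 0.10 (adjusted p = 0.0413, turning with every other scaling) and Ndufab1 fell by 0.21 (adjusted p = 0.00184, with every scaling but not without).

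The counts of assembly factors were set beside the 11.4% of all genes that rose and the 12.3% that fell. For complex I, 1 of 15 rose and 4 fell. Ndufaf1 rose by 0.44 ± 0.06 (adjusted p = 0.00103) and was above 0 under every scaling, while Ecsit fell by 0.50 ± 0.12 and Foxred1 by 0.42 ± 0.08. For complexes II and III 1 of 9 rose, the chaperone Bcs1l (0.43 ± 0.09 SE, adjusted p = 0.0124), which inserts the Rieske protein, and 1 fell, Uqcc2 (-0.44 ± 0.04 SE, adjusted p = 0.000153). Of the 19 factors for complex IV, 1 rose and 2 fell, Sco2, a copper chaperone, by 0.59 ± 0.11. Of the ATP synthase list 1 of 4 fell, the inhibitor Atpif1 (by 0.20, adjusted p = 0.015). With medians centred 4 factors of complex I were higher and 0 lower, 5 and 1 of complexes II and III, and 8 and 0 of complex IV. With trimmed-mean scaling these were 1 and 3, 1 and 2, and 1 and 4, and without scaling all were higher. Ndufaf1 and Bcs1l were higher in every setting of scaling, and the falls named here were lower under every scaling and higher without scaling.

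Transport of ATP and its substrates had 4 genes that rose and 1 that fell of 7, against 11.4% and 12.3% of all genes. The largest rise was Ckmt2, the mitochondrial creatine kinase of heart muscle, at 14.19 and 14.15 in the treated hearts, 13.59 and 13.64 in the untreated apoE-deficient hearts and 13.84 and 13.79 in B6 (0.56 ± 0.03 SE, adjusted p = 1.18e-05). Slc25a4, the ADP/ATP carrier of muscle, rose by 0.15 (adjusted p = 0.00556), and Vdac1, a pore of the outer membrane, fell by 0.31 (adjusted p = 0.0295). Ckmt2 turned with trimmed-mean (-0.30) and spike-in scaling (-0.13), Slc25a4 with every other scaling, and the list had 0 genes higher and 7 lower with trimmed-mean, 0 and 5 with spike-in, 1 and 4 with median scaling and 6 and 0 without scaling. In the citric acid cycle 3 of 13 rose and 3 fell. These counts became 4 and 6 with cyclic loess, 1 and 10 with trimmed-mean, 1 and 7 with spike-in and 2 and 6 with median scaling, and 12 and 0 without scaling. Examples were Idh3b, of the NAD-linked isocitrate dehydrogenase, higher by 0.50 ± 0.04 and the NADP-linked Idh2 lower by 0.54 ± 0.05. The sign of Idh3b held in every setting and that of Idh2 in every scaling. Of the genes of mitochondrial DNA, ND5 had a probe set, stood at -0.06 ± 0.03 and did not pass in limma with quantile normalization. It passed as lower with the other 4 scalings (-0.36 to -0.96) and stood at 0.27 without scaling.

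Regulators of mitochondrial biogenesis had 2 genes that rose and 2 that fell of 17, close to the 11.4% and 12.3% of all genes. The counts were the same with cyclic loess and trimmed-mean scaling, 5 and 2 by the spike-ins, 8 and 0 with medians centred and 17 and 0 without scaling. Ppargc1a, a coactivator that raises transcription of respiratory genes, had levels of 9.72 and 9.66 in the treated hearts, 10.26 and 10.29 in the untreated apoE-deficient hearts and 10.31 and 10.14 in B6, and fell by 0.58 ± 0.07 (adjusted p = 0.000556). Esrra, a nuclear receptor it coactivates, rose by 0.37 ± 0.10 (adjusted p = 0.0316), and Tfam, which packs and transcribes mitochondrial DNA, rose by 0.27 (adjusted p = 0.0493). Polg, the polymerase that copies it, fell by 0.53 (adjusted p = 0.00133). Esrra and Tfam were above 0 in every setting of scaling, and Ppargc1a and Polg were below 0 in every scaling and above it without. Nrf1, Gabpa and Yy1 did not pass, at 0.23 ± 0.20, 0.15 ± 0.08 and 0.09 ± 0.08.

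Letters of the binding motifs of such regulators were searched on both strands in the 250 bases before the RefSeq starts of 66 member genes (71 windows, GRCm38.p6), beside all 32851 windows. The palindromic NRF-1 core, whose letters stand in capitals in the sequences that follow, was in 4.23% of the member windows and 0.782% of all windows. The same core with any base in place of its A, which includes it, was in 16.9% and 3.74%. The ETS motif of NRF-2, CCGGAAG, was in 16.9% and 6.91%, the estrogen-related receptor motif TCAAGGTCA in 1.41% and 0.387%, and the YY1 core AAGATGGC in 1.41% and 1.56%. The PPAR direct repeat with a spacer of 1 base (DR1) was in 0 of 71 member windows and in 0.0335% of all windows. The strict NRF-1 core lay before Atp5g2 and Atp5k, which fell in treated against untreated hearts, and before Cox6a1, which rose, so the same letters stood before genes of both directions. These stretches of the promoters, 5′ to 3′ in the direction of the gene, show the core in capitals, for Atp5g2 at chr15:102671055-102671114, Atp5k at chr5:108434415-108434474 and Cox6a1 at chr5:115349086-115349145, each on the minus strand.
Atp5g2: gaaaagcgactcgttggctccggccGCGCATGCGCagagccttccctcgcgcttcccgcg
Atp5k: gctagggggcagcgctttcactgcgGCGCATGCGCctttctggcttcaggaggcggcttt
Cox6a1: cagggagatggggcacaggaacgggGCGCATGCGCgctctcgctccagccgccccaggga
The core began at -42, -50 and -162 bases from the start in this order. A match of letters is a description of the sequence and not a measured site.

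Markers of several other cell types, though not of all, differed between treated and untreated apoE-deficient hearts. Of 9 tested brown adipocyte markers 6 rose and 1 fell, led by the uncoupling protein Ucp1 at 12.60 and 12.61 in the treated hearts, 3.83 and 3.99 in the untreated apoE-deficient hearts and 5.74 and 4.22 in B6, and the summed signal of this list was 12730 to 12780 in treated, 2625 to 2635 in untreated apoE-deficient and 2407 to 2671 in B6 hearts. Zic1 and Lhx8, which mark brown adipocytes, were too dim to be tested. White adipocyte markers rose in 7 of 8 cases, with sums of 29620 to 30290, 9358 to 9671 and 10220 to 10940 in the same order, and airway epithelium markers in 5 of 8, with sums of 15760 to 16650, 160 to 210 and 144 to 205. Of 8 fibroblast markers 6 rose and 0 fell in limma, with sums of 24510 to 24620, 18990 to 19180 and 21340 to 21750. Of 8 endothelial markers 4 rose and 2 fell, with sums of 6343 to 6440, 9462 to 9577 and 9354 to 9473. Lymphocyte markers, of which 1 of 5 rose and 1 fell, had sums of 1410 to 1708, 338 to 375 and 285 to 318. Macrophage markers, with 2 of 7 higher and 1 lower, had sums of 8399 to 8413, 8182 to 8365 and 6577 to 6866. Sums of the skeletal muscle markers were low, at 246 to 262, 302 to 365 and 278 to 288. Brown adipocytes are rich in mitochondria and use Cox7a1 and Cox8b like heart muscle does. Of the cardiomyocyte markers 3 of 12 rose and 5 fell, with a median of -0.09. Titin (Ttn) rose by 0.49 ± 0.04 and the myosin light chain Myl2 fell by 0.32 ± 0.06. Ttn turned to -0.25 with trimmed-mean scaling and -0.07 by the spike-ins, and the fall of Myl2 turned without scaling (0.08). The part of these cells in the subunit results was not tested.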

How the data were processed

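The members and lists were chosen with earlier results of these data known. Per the labels' protocols, biotinylated cRNA from total heart RNA was hybridised. The table deposited by the authors gives linear intensities of 45101 probe sets; the submitters' processing notes name GCOS. Its version and any scaling are not given here. Signals of 45037 non-control probe sets were quantile-normalized, 11.1 (the 25th percentile) was added and log2 taken. Probe sets above the 40th percentile of mean level (4.99), 27022, were tested with limma 3.58.1 (R 4.3.3; lmFit, then eBayes with trend) in 1 fit of 6 arrays, with 3 residual and 5.97 prior degrees of freedom, and passed where the p adjusted by Benjamini-Hochberg over all of them was under 0.05. The fit was also run on simulated normalized values with known changes. Scaling between arrays was not part of that simulation. The number of arrays limits the precision.

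Gene symbols come from an array annotation that can be old, and probe sets with several symbols (932) or none (9160) were not used. Named are isoform families, core subunits, the 2 highest and 2 lowest passing differences of each complex and comparison, and members of counts of 5 or fewer, with other genes of the pathway lists. Other probe sets and differences relative to the subunit median were added after seeing the data. The other scalings, a pseudocount at the 10th or 50th percentile, no filter, no intensity trend, the mean over probe sets, fits of 2 groups, the replicate number as a block and leaving out each array were the alternatives.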

Additional observations from a re-analysis of the deposited data

How the results depend on the processing

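The direction of a single subunit gene, and the split of the counts into higher and lower, changed with the scaling between arrays, and the cause was not tested. Replicate numbers did not pair the arrays: deviations of same-numbered arrays correlated at -0.0063, 0.033 and 0.020 between the groups. With the replicate number as a block 16 genes were higher and 29 lower for treated against untreated, 6 and 7 for untreated against B6 and 10 and 28 for treated against B6. The counts of subunit genes that passed became with cyclic loess normalization, 6 higher and 50 lower for treated against untreated and 2 higher and 49 lower for treated against B6. With trimmed-mean scaling they were 0 higher and 69 lower for treated against untreated, 8 higher and 1 lower for untreated against B6 and 0 higher and 67 lower for treated against B6. With spike-in scaling they were 0 higher and 65 lower for treated against untreated, 41 higher and 0 lower for untreated against B6 and 3 higher and 45 lower for treated against B6. With array medians centred they were 5 higher and 58 lower for treated against untreated and 0 higher and 60 lower for treated against B6. Without scaling they were 71 higher and 0 lower for treated against untreated, 0 higher and 2 lower for untreated against B6 and 39 higher and 0 lower for treated against B6. Without the intensity trend of limma they were 1 higher and 2 lower for treated against untreated, 0 higher and 0 lower for untreated against B6 and 0 higher and 0 lower for treated against B6. Without the filter on dim probe sets they were 3 higher and 2 lower for untreated against B6. In fits of only the 2 groups compared they were 8 higher and 11 lower for untreated against B6. With the mean of all probe sets of a gene they were 2 higher and 7 lower for untreated against B6. Leaving out 1 array at a time gave 8 to 15 higher and 18 to 32 lower for treated against untreated, 0 to 8 higher and 1 to 11 lower for untreated against B6 and 4 to 11 higher and 12 to 28 lower for treated against B6, with a group of 1 array assumed to vary like the others.

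Without scaling the log2 differences for treated against untreated that turned were Ndufs4 0.50, Ndufs7 0.26, Ndufs8 0.45, Ndufa7 0.51, Ndufb7 0.42, Ndufb2 0.48, Ndufv3 0.24, Ndufa4l2 0.71, Ndufa4 0.41, Ndufs1 0.62, Ndufv1 0.48, Ndufs3 0.69, Sdha 0.51, Sdhb 0.26, Sdhd 0.81, Uqcr10 0.48, Uqcrq 0.55, Uqcrc1 0.39, Cox6a2 0.18, Cox7a2l 0.79, Cox5b 0.22, Cox4i1 0.37, Cox8a 0.996, Cox8b 0.37, Atp5o 0.14, Atp5g1 0.13, Atp5g2 0.52, Atp5g3 0.34, Atp5a1 0.31, Atp5k 0.38, Ndufab1 0.42, Vdac1 0.27, Ppargc1a 0.62, Polg 0.73, Coq8b 0.59, Coq4 0.79, Coq7 0.82, Idh2 0.038, Ecsit 0.67, Foxred1 0.84, Sco2 0.69, Uqcc2 0.57, Atpif1 0.85, Cox4i2 1.09 and Myl2 0.082. Without scaling the log2 differences for treated against B6 that turned were Ndufs7 0.19, Uqcr10 0.32, Atp5g3 0.0085, Atp5k 0.15, Cox5b 0.057, Sdhb 0.078 and Ndufs4 0.51. With trimmed-mean scaling the log2 differences for treated against untreated that turned were Ndufc1 -0.37, Ndufb9 -0.52, Ndufb10 -0.39, Ndufv2 -0.51, Sdhc -0.0093, Uqcrc2 -0.53, Uqcrfs1 -0.48, Cox6a1 -0.13, Cox7a2 -0.70, Cox5a -0.71, Cox7a1 -0.74, Atp5pb -0.15, Atp5b -0.41, Cycs -0.41, Cyc1 -0.63, Ckmt2 -0.30, Slc25a4 -0.71, Cox6b1 -0.85 and Ttn -0.25. With trimmed-mean scaling the log2 differences for treated against B6 that turned were Ndufb10 -0.14, Atp5b -0.44, Ndufa12 -0.41, Cox6a1 -0.10, Atp5pb -0.47, Uqcrc2 -0.42, Cycs -0.23 and Ndufs8 -0.43. With spike-in scaling the log2 differences for treated against untreated that turned were Ndufc1 -0.19, Ndufb9 -0.34, Ndufb10 -0.21, Ndufv2 -0.33, Uqcrc2 -0.35, Uqcrfs1 -0.30, Cox7a2 -0.52, Cox5a -0.53, Cox7a1 -0.56, Atp5b -0.23, Cycs -0.23, Cyc1 -0.45, Ckmt2 -0.13, Slc25a4 -0.53, Cox6b1 -0.67 and Ttn -0.067. With spike-in scaling the log2 differences for untreated against B6 that turned, among the falls named for that comparison, were Uqcrfs1 0.021, Sdhc 0.028, Ndufc1 0.090 and Ndufb11 0.11. With spike-in scaling the log2 differences for treated against B6 that turned were Atp5b -0.12, Ndufa12 -0.092, Atp5pb -0.15 and Uqcrc2 -0.11. With array medians centred the log2 differences for treated against untreated that turned were Ndufc1 -0.027, Ndufb9 -0.18, Ndufb10 -0.044, Ndufv2 -0.17, Uqcrc2 -0.19, Uqcrfs1 -0.14, Cox7a2 -0.36, Cox5a -0.37, Cox7a1 -0.40, Atp5b -0.064, Cycs -0.066, Cyc1 -0.29, Slc25a4 -0.37 and Cox6b1 -0.50. With array medians centred the log2 differences for treated against B6 that turned were Atp5b -0.25, Ndufa12 -0.22, Atp5pb -0.28, Uqcrc2 -0.23, Cycs -0.034 and Ndufs8 -0.24. With cyclic loess normalization the log2 differences for treated against untreated that turned were Ndufv2 -0.0099, Uqcrc2 -0.019, Uqcrfs1 -0.0091, Cox7a2 -0.14, Cox5a -0.16, Cox7a1 -0.22, Cyc1 -0.10, Slc25a4 -0.11 and Cox6b1 -0.26. With cyclic loess normalization the log2 differences for treated against B6 that turned were Atp5b -0.042, Ndufa12 -0.019, Atp5pb -0.090 and Uqcrc2 -0.058. With the mean of all probe sets of a gene the log2 differences for treated against untreated that turned were Sdhd 0.21, Cox7a2 -0.0072, Atp5o 0.020, Ndufab1 0.12, Tfam -0.000913 and Cox6b1 -0.13. With the mean of all probe sets of a gene the log2 differences for untreated against B6 that turned were Sdhc 0.0052. Pseudocounts at the 10th and 50th percentiles turned no sign of these genes. Without scaling Cox7c also passed the filter on dim probe sets. With quantile normalization the smallest member difference that passed was 0.10, for Atp5d, while larger ones of dimmer members, such as 0.37 for Cox6b2, did not pass.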
